A study of Mus musculus with 50 samples.

Results

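Myc, Max and the Mxd proteins form a small network of transcription factors, and 9 of its genes were followed here in mouse colon cells carrying mutant p53, activated Ras or both. The members were Myc, Mycn, Max, Mxd1, Mxd3, Mxd4, Mxi1, Mnt and Mlx. A probe set of the array belonged to a member when the platform annotation gave that gene as its only symbol, which took 21 of the 34945 probe sets with exactly 1 symbol and 9 of 18193 gene symbols. Myc and Max had 1 probe set each, Mxi1, Mnt and Mlx 2 each, Mycn, Mxd1 and Mxd3 3 each, and Mxd4 had 4.

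The cells were young adult mouse colon (YAMC) cells, a low-passage polyclonal epithelial culture from the Immorto-mouse, which carries the temperature-sensitive large T antigen tsA58 under a promoter induced by interferon γ. All 5 groups carried tsA58 and were kept at 39 °C, where it does not work, without interferon γ for 48 h and then for 24 h in 0% serum. They were the parental YAMC cells, the bleo/Neo population infected with both empty retroviral vectors, the mp53 population (p53175H with Neo), the Ras population (Bleo with RasV12) and the mp53/Ras population with both oncogenes. Each group had 10 arrays, 50 in all, of mRNA bound to polysomes. Each population was polyclonal and was derived once, the labels do not say that its 10 replicates were separate cultures, and the p-values therefore measure the spread between these arrays only.

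Myc is a transcription factor that drives growth, ribosome production and cell division, and it binds DNA only when paired with Max. Mxd1, Mxd3, Mxd4, Mxi1 and Mnt compete for Max, bind the same short DNA element, the E-box CACGTG, and recruit repressors there. Mlx is a Max-like partner that pairs with Mnt, some Mxd proteins and the glucose-responsive Mondo factors. In the gut, Myc is abundant in dividing crypt cells, and Mxd1 is a marker of cells that leave the cycle and differentiate.

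Of the 8 members with a promoter window in RefSeq (build GRCm38.p6, 250 bases before to 50 after the gene's start), 4 held the E-box CACGTG, searched on both strands, which are the same for this palindrome. It was found in 7.15% of all 32851 windows of that length and in 4 of the members' 10. A match is a description of the letters. The stretches are shown because these 4 windows, of Max, Mlx, Mnt and Mxd4, contain the network's own binding element. Each is printed 5′ to 3′ along the gene's strand, with the E-box in capitals.
Max, chr12:76962246-76962278, minus strand: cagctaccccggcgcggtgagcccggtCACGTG
Mlx, chr11:101087223-101087282, plus strand: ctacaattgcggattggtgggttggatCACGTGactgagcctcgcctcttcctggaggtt
Mnt, chr11:74830774-74830833, plus strand: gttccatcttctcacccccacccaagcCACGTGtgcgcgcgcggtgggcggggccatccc
Mxd4, chr5:34187897-34187956, minus strand: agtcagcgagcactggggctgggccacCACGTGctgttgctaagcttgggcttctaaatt
The first base of the element lay 3 bases before the start in Max, 40 in Mlx, 123 in Mnt and 219 in Mxd4. In Max the element thus ran across the start. No CACGTG was found in the windows of Mxd1, Mxd3, Mxi1 (3 windows) and Mycn.

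Levels are log2 of the deposited intensity, and a value from polysomal RNA reflects both the amount of a transcript and its loading with ribosomes. In bulk cultures, fewer cells of a type and less RNA per cell cannot be told apart. Differences are in log2 units with the standard error of a limma fit over all 50 arrays, and a gene was called at a Benjamini-Hochberg adjusted p under 0.05 over 12883 genes. Each gene was read by its brightest probe set, and for each of the 9 members that set exceeded the table's median (6.44) on all 50 arrays. Of the members' remaining 12 sets, 11 passed the filter of exceeding it on at least 10 arrays. The comparisons share groups (bleo/Neo, for example, serves 3 of them), so they are not independent of each other.

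Some facts on the samples touch the results. By their whole profile, 46 of 50 arrays lay closest to the mean of their labelled group. The other 4 did not: those labelled Ras 10 and YAMC 2 lay closest to mp53, the one labelled mp53 8 to YAMC and the one labelled mp53 10 to Ras. Results are given with and without these 4 arrays. Of 11 colon epithelium markers 6 passed the filter. The summed intensity of all 11, as log2, was 12.32 to 13.32 in YAMC and 13.74 to 14.05 in mp53/Ras. Krt8 and Krt18 were bright, with mean log2 levels from 10.5 to 12.9, Epcam had 8.07 to 8.41 and Krt19 8.44 (mp53) to 11.54 (bleo/Neo), while Cdh1 (3.95 to 4.31) and Vil1 (5.24 to 5.58), defining markers of colon epithelium, were below the table's median. Fibroblast and smooth muscle markers passed the filter in 9 of 10 cases. The summed intensity of all 10, as log2, was 15.92 to 16.37 in YAMC against 15.06 to 15.75 in bleo/Neo. It was 15.06 to 16.40 in mp53, 14.76 to 15.89 in Ras and 15.13 to 15.51 in mp53/Ras. Single markers set bleo/Neo apart in both directions. Its means of Col1a2 (8.68) and Myl9 (6.74) were below the others' (12.08 to 13.30 and 10.34 to 12.37). Its mean of Dcn (12.92) was above theirs (10.69 to 12.04). Of the squamous and neural markers 6 of 7 passed the filter. The summed intensity of all 7, as log2, was 12.40 to 12.95 in bleo/Neo and 9.54 to 11.96 in the others. Gpm6a was the brightest of them in bleo/Neo, with a mean log2 level of 12.11 there and 6.95 to 7.94 in the others. Ivl and Krt15 had higher means in Ras (10.68 and 8.62) than in bleo/Neo (9.98 and 8.16). Of the endothelial markers 2 of 5 and of the immune markers 3 of 5 measured passed the filter. The part of these cell types in the members' differences was not tested. The introduced oncogenes' own probe sets are not reported here.

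Myc mRNA on polysomes was higher with Ras and highest with both oncogenes, while mutant p53 alone did not pass the test. The log2 level of Myc ranged from 7.10 to 8.94 in bleo/Neo (median 8.09) and from 7.47 to 8.66 in YAMC (median 7.99). In mp53 it ranged from 7.67 to 8.52 (median 8.21). It ranged from 8.18 to 9.42 in Ras (median 9.19) and from 9.34 to 10.04 in mp53/Ras (median 9.49). Every mp53/Ras array lay above every array of YAMC, bleo/Neo and mp53, whereas Ras overlapped with bleo/Neo at its low end. The lowest Ras array was the one labelled Ras 10. Without the 4 arrays the overlap remained, with the lowest Ras array at 8.82 and the highest bleo/Neo array at 8.94.

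Relative to bleo/Neo, Myc rose by 0.93 ± 0.17 in Ras (1.91-fold, adjusted p = 6.68e-06, n = 10) and by 1.40 ± 0.17 in mp53/Ras (2.63-fold, adjusted p = 3.92e-10). In mp53 the difference was 0.05 ± 0.17 (adjusted p = 0.831). Against the parental cells the same rises were 0.97 in Ras and 1.44 in mp53/Ras, and bleo/Neo differed from YAMC by 0.04 (adjusted p = 0.873). So YAMC, bleo/Neo and mp53, neighbours in the order of levels, did not differ beyond their spread. Ras exceeded mp53 by 0.88 ± 0.17 (adjusted p = 3.44e-05).

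The step from Ras to mp53/Ras was 0.46 ± 0.17 (adjusted p = 0.0375), and it rests in part on the 4 arrays. Without them it was 0.36 ± 0.15 (adjusted p = 0.0777, limma). The non-additive term, the mp53/Ras difference minus the sum of the mp53 and Ras differences from bleo/Neo, was 0.41 ± 0.23 for Myc (adjusted p = 0.216).

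**Figure D1:**
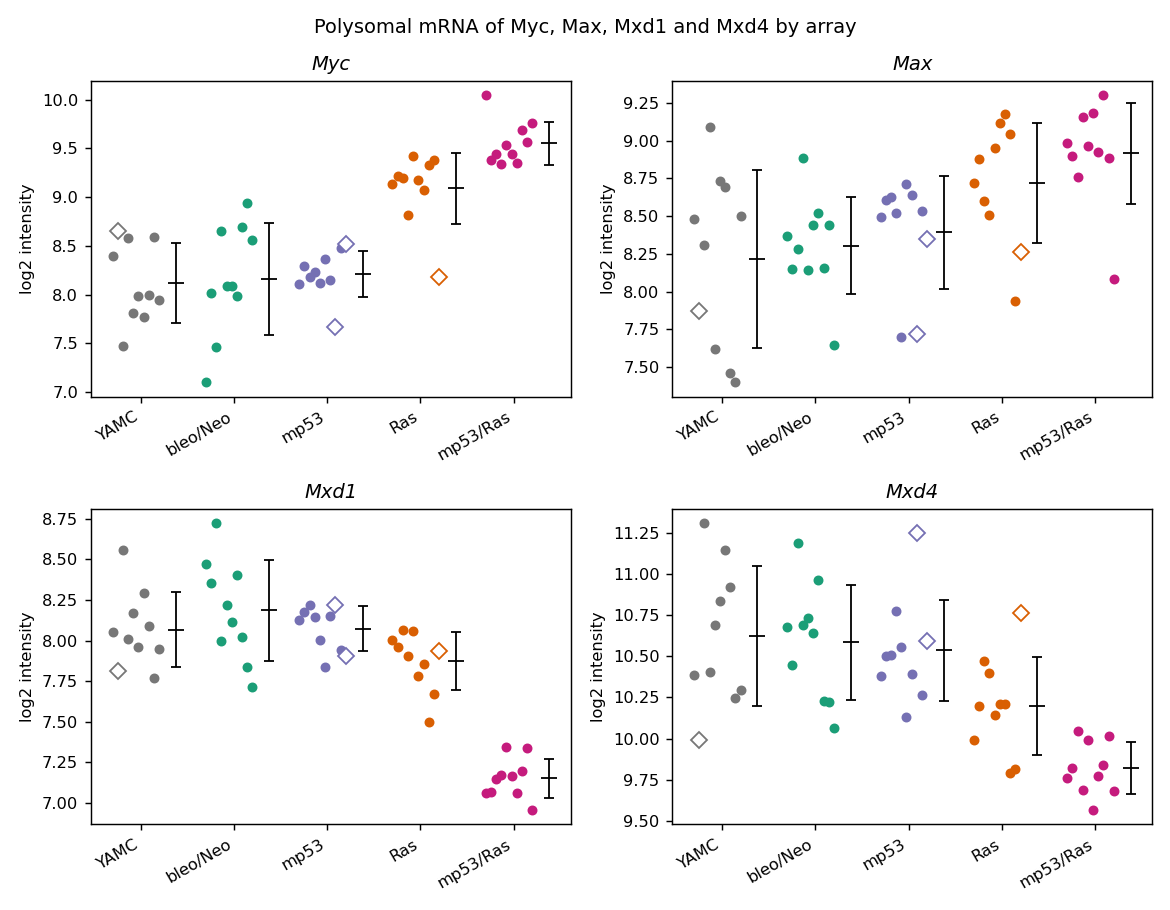
Log2 intensity of Myc, Max, Mxd1 and Mxd4 on each array by group. Points are arrays, open diamonds the 4 arrays nearer another group's mean, and bars mean ± SD, n = 10 per group. Myc was highest in mp53/Ras (9.34 to 10.04), where Mxd1 (6.96 to 7.35) and Mxd4 (9.57 to 10.05) were lowest.

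Mycn, the Myc family member best known from neural tissue, gave different answers on its 3 probe sets. The brightest, 1425923_at, was low in the parental cells and near the top of the scale in all 4 infected populations. Its log2 level was 7.53 to 8.50 on 9 YAMC arrays and 13.82 on the array labelled YAMC 2. It was 13.19 to 13.66 in bleo/Neo, 13.67 to 13.89 in Ras and 13.98 to 14.16 in mp53/Ras, while the highest value in the whole table was 14.26. In mp53, 9 arrays lay between 13.84 and 13.98 and the array labelled mp53 8 was at 7.16. The low readings were thus 9 YAMC arrays and the array labelled mp53 8, and the high ones all others, the array labelled YAMC 2 included.

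Without the 4 arrays, the lowest of the 37 arrays of infected populations exceeded the highest of the 9 YAMC arrays by 4.69 on this set, and the group means differed by 6.08. This was the widest such gap among 45037 probe sets. The next had a gap of 0.92 and no symbol, and Rab38, Lgals2 and Krt15 followed with 0.59, 0.43 and 0.40. A gap above 0 was found for 54 probe sets.

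With all arrays, 1425923_at was higher than in YAMC by 5.15 ± 0.55 in bleo/Neo (adjusted p = 6.3e-11), by 4.87 in mp53, by 5.49 in Ras and by 5.70 in mp53/Ras. Leaving out the 4 arrays, the bleo/Neo difference was 5.76 ± 0.07. With all arrays no difference among the infected groups was called. Those groups lie so near the highest value in the table that no direction or size is read from their differences, with or without the 4 arrays.

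The other probe sets of Mycn did not show the gap. On 1417155_at the median log2 level was 8.18 for YAMC and 8.50 for bleo/Neo, 8.02 with mp53 alone, 7.51 with Ras alone and 7.26 with both. That set fell by 0.97 ± 0.23 in Ras (adjusted p = 0.000764) and by 1.12 ± 0.23 in mp53/Ras (adjusted p = 7.02e-05) relative to bleo/Neo. It differed by 0.46 ± 0.23 between bleo/Neo and YAMC (adjusted p = 0.127). The set 1425922_a_at stayed between 6.66 and 7.57 on all arrays, and its difference of mp53/Ras from bleo/Neo was -0.04 (adjusted p = 0.755). Retroviral infection and the high reading of 1425923_at coincide, so a reading of vector sequence by that set and a change in Mycn mRNA cannot be told apart here.

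**Figure D2:**
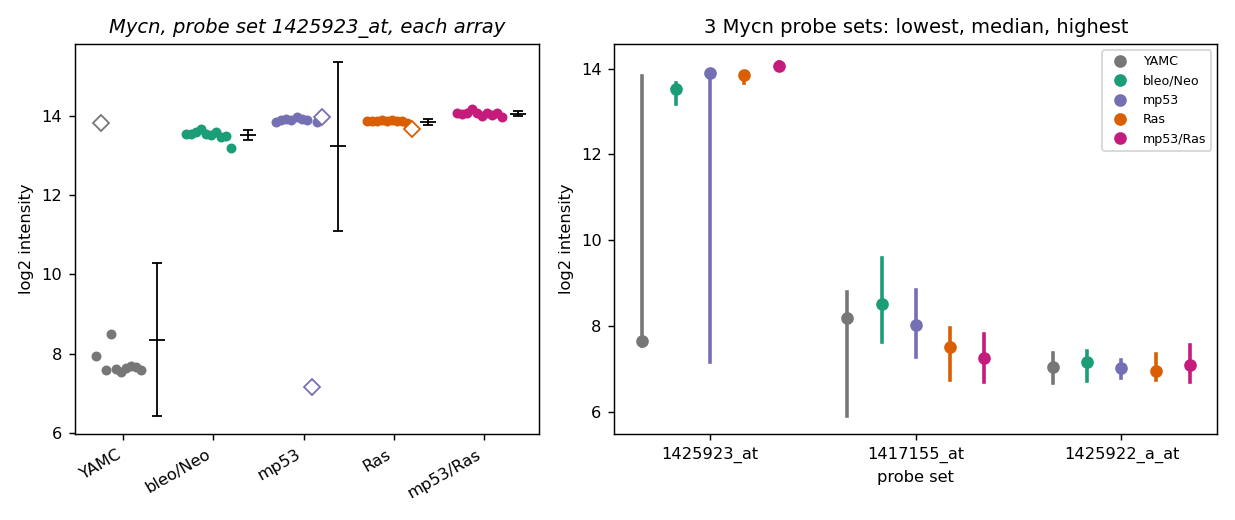
Mycn by probe set. The left panel shows log2 intensity of 1425923_at on each array, with open diamonds for the 4 arrays nearer another group's mean and bars for mean ± SD, n = 10 per group. The right panel shows the median (point) and the lowest to highest array (line) of each group on each of the 3 sets. On 1425923_at all YAMC arrays but 1 lie between 7.53 and 8.50 and all infected arrays but 1 lie above 13.1, a split that the other sets lack.

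Max, the obligate partner of Myc and of its antagonists, was moderately higher in the cells with Ras. Its log2 level ranged from 7.64 to 8.88 in bleo/Neo (median 8.32), from 7.70 to 8.72 in mp53 (median 8.53) and from 7.40 to 9.09 in YAMC (median 8.39). It ranged from 7.94 to 9.17 in Ras (median 8.80) and from 8.09 to 9.30 in mp53/Ras (median 8.95). All groups overlapped. Max rose in mp53/Ras by 0.61 ± 0.18 against bleo/Neo (1.53-fold, adjusted p = 0.00321) and by 0.52 against mp53 (adjusted p = 0.0136). In Ras it was 0.41 ± 0.18 above bleo/Neo, which missed the threshold in the main limma fit of all arrays (adjusted p = 0.0568). It passed without the 4 arrays (0.47, adjusted p = 0.0286). With all arrays kept it also passed under array weights (0.44, adjusted p = 0.0129) and with the replicate number as a block (adjusted p = 0.0277). The fit of only the compared groups called it as well (adjusted p = 0.0312).

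Mxd1, an antagonist of Myc associated with differentiation, was lowest in mp53/Ras cells on its brightest probe set. There the drop from bleo/Neo exceeded the sum of the differences of mp53 and Ras from bleo/Neo. Its log2 level (probe set 1434830_at) ranged from 6.96 to 7.35 in mp53/Ras (median 7.16). It ranged from 7.50 to 8.06 in Ras (median 7.92), from 7.84 to 8.22 in mp53 (median 8.14), from 7.71 to 8.72 in bleo/Neo (median 8.17) and from 7.77 to 8.56 in YAMC (median 8.03). All 10 mp53/Ras arrays lay below the 40 others.

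Relative to bleo/Neo, Mxd1 fell by 1.04 ± 0.09 in mp53/Ras (2.05-fold, adjusted p = 7.03e-14) and by 0.31 ± 0.09 in Ras (adjusted p = 0.00499), and differed by -0.11 ± 0.09 in mp53 (adjusted p = 0.362). Ras was not called in the main limma fit against YAMC (-0.19, adjusted p = 0.0844) or mp53 (-0.20, adjusted p = 0.0908). Array weights called both (-0.21, adjusted p = 0.0374, and -0.22, adjusted p = 0.00811). Mxd1 differed most between mp53/Ras and the rest. It was lower in mp53/Ras than in Ras by 0.72 ± 0.09 (adjusted p = 3.05e-08). The non-additive term was -0.61 ± 0.13 (adjusted p = 0.000344), and -0.61 ± 0.14 without the 4 arrays (adjusted p = 0.000615). Mxd1 was the only member called for this term, which was called for 23.9% of all genes.

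These values rest on 1 probe set of 3. On 1422002_at, dimmer at 6.60 to 7.08, mp53/Ras was higher than bleo/Neo by 0.14 ± 0.05 (adjusted p = 0.00869), and on 1455104_at, at 7.31 to 7.89, the difference was 0.02 ± 0.06 (adjusted p = 0.840). The non-additive term on these sets was -0.03 (adjusted p = 0.803) and 0.09 (adjusted p = 0.440).

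Mxd4, a related antagonist, fell in the same cells on most of its probe sets. On the brightest, 1434378_a_at, the log2 level ranged from 9.57 to 10.05 in mp53/Ras (median 9.80) and from 9.79 to 10.76 in Ras (median 10.20). It ranged from 10.13 to 11.25 in mp53 (median 10.51), from 10.06 to 11.19 in bleo/Neo (median 10.66) and from 9.99 to 11.31 in YAMC (median 10.55). The mp53/Ras arrays lay below all arrays of bleo/Neo and mp53, and they overlapped with Ras and, at the array labelled YAMC 2, with YAMC.

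Mxd4 fell by 0.77 ± 0.14 in mp53/Ras (1.70-fold, adjusted p = 6.44e-06) and by 0.39 ± 0.14 in Ras (adjusted p = 0.0216) relative to bleo/Neo. In mp53 it differed by -0.05 ± 0.14 (adjusted p = 0.817). The step from Ras to mp53/Ras was -0.38 ± 0.14 (adjusted p = 0.0436) with all arrays and -0.32 (adjusted p = 0.0563) without the 4. No other set was called for this step. It was -0.18 on 1422574_at (adjusted p = 0.450), -0.33 on 1434379_at (adjusted p = 0.126) and 0.01 on 1422575_at (adjusted p = 0.965). In mp53/Ras against bleo/Neo, the sets 1422574_at and 1434379_at fell by 0.61 ± 0.15 and 0.81 ± 0.15, and 1422575_at differed by 0.07 ± 0.08 (adjusted p = 0.458).

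Pooled over the groups, arrays with more Myc than their group mean tended to have less Mxd1 and Mxd4. The pooled value does not show that each group had this relation. Groups with a wide spread of Myc weigh more in it, and the SD of Myc was 0.57 in bleo/Neo but 0.22 in mp53/Ras. The Pearson correlation of each array's deviation from its group mean was -0.69 between Myc and Mxd1 and -0.69 between Myc and Mxd4 over 50 arrays. It was -0.70 and -0.62 over the 46 arrays left without the 4. For Mlx it was 0.40 over 50 arrays and 0.41 over 46, and for Mnt 0.30 and 0.32. For Mxi1 it was 0.21 over 50 arrays but -0.03 over 46, for Max 0.08 and -0.01, and for Mxd3 -0.16 and -0.16. These are descriptions, since the genes share each array, its RNA and its normalization.

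**Figure D3:**
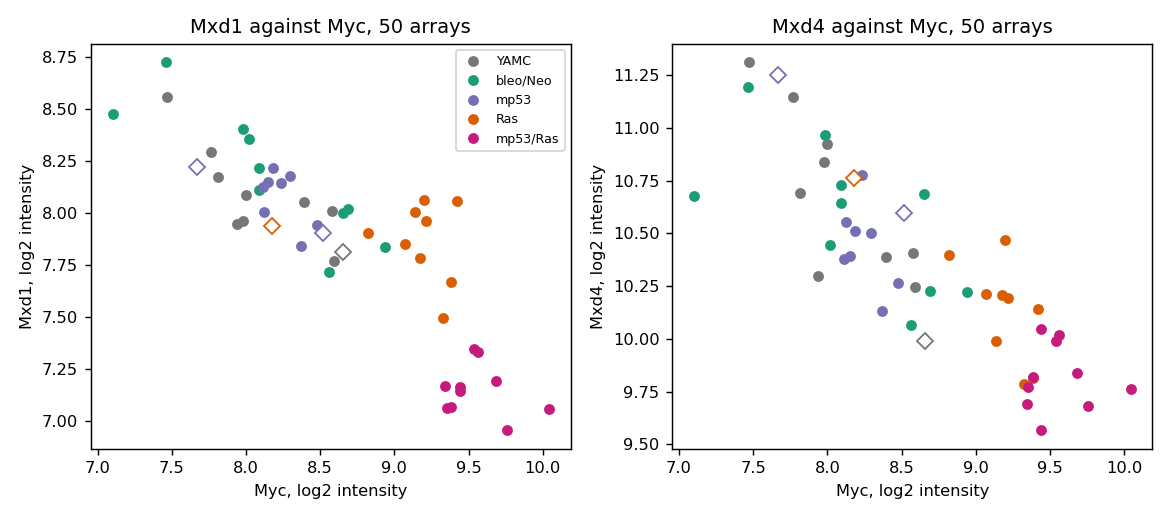
Log2 intensity of Mxd1 (left) and Mxd4 (right) against that of Myc, 1 point per array, coloured by group, with open diamonds for the 4 arrays nearer another group's mean. The mp53/Ras arrays occupy the corner of high Myc (above 9.3) and low Mxd1 (below 7.4).

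Mxi1, which also pairs with Max and represses, went the other way from Mxd1 and Mxd4. Its log2 level ranged from 7.69 to 8.38 in bleo/Neo (median 7.99), from 7.75 to 8.61 in mp53 (median 7.92) and from 7.45 to 8.35 in YAMC (median 7.86). It ranged from 7.72 to 9.10 in Ras (median 8.37) and from 7.92 to 8.78 in mp53/Ras (median 8.46), and the groups overlapped. It rose by 0.39 ± 0.12 in Ras (adjusted p = 0.00641) and by 0.45 ± 0.12 in mp53/Ras (1.36-fold, adjusted p = 0.00134) relative to bleo/Neo. In mp53 it did not pass the test (adjusted p = 1.00), and Ras and mp53/Ras differed by 0.05 ± 0.12 (adjusted p = 0.799). Its dimmer set 1425732_a_at rose by 0.31 ± 0.08 in mp53/Ras (adjusted p = 0.001) and differed by 0.04 ± 0.08 in Ras (adjusted p = 0.726).

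Mxd3, the Mxd protein expressed in dividing cells, separated the Ras-containing populations from each other. Its log2 level was 7.82 to 8.33 in Ras (median 8.15) and 8.36 to 8.86 in mp53/Ras (median 8.54), with no overlap. The other groups spread across both, from 7.87 to 8.99 in bleo/Neo, 7.92 to 8.90 in mp53 and 7.23 to 8.94 in YAMC. Mxd3 was higher in mp53/Ras than in Ras by 0.44 ± 0.14 (adjusted p = 0.0206), and differed by 0.21 ± 0.14 from bleo/Neo (adjusted p = 0.212). The other sets of Mxd3 showed 0.21 (1422970_at, adjusted p = 0.132) and 0.00 (1438847_at, adjusted p = 0.991) for the step from Ras to mp53/Ras. Its difference of mp53/Ras from YAMC, 0.34 (adjusted p = 0.0384), was 0.23 without the 4 arrays (adjusted p = 0.130).

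Mnt, the most widely expressed antagonist, did not pass the test in any comparison in the fit of all arrays with equal weights and no block. Its log2 level ranged from 9.12 to 10.16 in bleo/Neo (median 9.61), from 9.20 to 9.87 in Ras and from 9.28 to 9.81 in mp53/Ras (median 9.55). In YAMC it ranged from 8.88 to 10.17 (median 9.22), with the array labelled YAMC 2 the highest. Its difference of mp53/Ras from bleo/Neo was -0.05 ± 0.13 (adjusted p = 0.774). Without the 4 arrays, bleo/Neo exceeded YAMC by 0.36 ± 0.11 (adjusted p = 0.00867, limma), against 0.27 ± 0.13 (adjusted p = 0.0885) with them. In the same setting mp53 exceeded YAMC by 0.35 ± 0.12 (adjusted p = 0.0202) and mp53/Ras by 0.31 ± 0.11 (adjusted p = 0.0154). With the replicate number as a block, all arrays gave calls for bleo/Neo (0.27, adjusted p = 0.0212) and mp53/Ras (0.22, adjusted p = 0.0421) against YAMC. With array weights Mnt was called in those comparisons (adjusted p = 0.0359 and 0.00922), in mp53 against YAMC (0.35, adjusted p = 0.0020) and in Ras against mp53 (-0.21, adjusted p = 0.0373). The second Mnt set, 1418193_at, lay at 5.81 to 6.55 and was not tested.

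Mlx was higher in all 4 infected populations than in YAMC. Its log2 level ranged from 7.91 to 8.56 in YAMC (median 8.42). It ranged from 8.32 to 9.29 in bleo/Neo (median 9.02), from 7.80 to 9.19 in mp53 (median 9.09), from 8.58 to 9.25 in Ras (median 9.05) and from 8.90 to 9.45 in mp53/Ras (median 9.14). The lowest mp53 array was the one labelled mp53 8. All Ras and mp53/Ras arrays lay above all YAMC arrays.

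Against YAMC, Mlx rose by 0.63 ± 0.12 in bleo/Neo (1.55-fold, adjusted p = 3.58e-05) and by 0.55 in mp53 (adjusted p = 0.000593). With Ras alone it rose by 0.69 (adjusted p = 7.35e-06) and with both oncogenes by 0.82 (1.77-fold, adjusted p = 9.69e-08). Against bleo/Neo it differed by -0.08 to 0.19, with no call. The second set, 1418437_a_at, also rose in bleo/Neo against YAMC (0.24 ± 0.06, adjusted p = 0.00131), and rose further against bleo/Neo in Ras (0.32 ± 0.06, adjusted p = 1.54e-05) and mp53/Ras (0.44 ± 0.06, adjusted p = 1.67e-08).

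**Figure D4:**
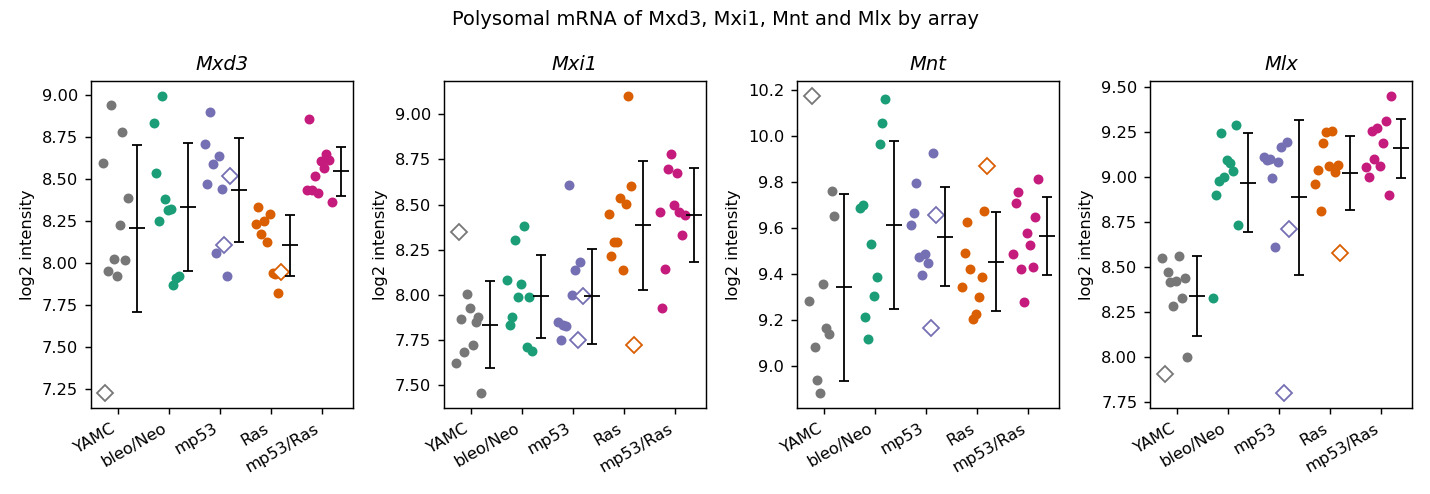
Log2 intensity of Mxd3, Mxi1, Mnt and Mlx on each array by group. Points are arrays, open diamonds the 4 arrays nearer another group's mean, and bars mean ± SD, n = 10 per group. Mxd3 of mp53/Ras (8.36 to 8.86) lies above Ras (7.82 to 8.33), and Mlx of YAMC (7.91 to 8.56) lies low.

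Counted over the network, 4 of 9 members were called in Ras against bleo/Neo (Myc and Mxi1 higher, Mxd1 and Mxd4 lower), where 41.1% of all genes were called. In mp53/Ras against bleo/Neo 5 of 9 were called (Myc, Max and Mxi1 higher, Mxd1 and Mxd4 lower), where 54.6% of all genes were. Both shares are near the background. In mp53 against bleo/Neo limma called 0 of 9, and 0 at an unadjusted p under 0.05, where 35.4% of all genes were called. When the 4 arrays were left out, 1 member was called, as were 40.1% of all genes. It was Mycn, whose readings lie near the top of the scale.

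Against YAMC, 2 of 9 were called in bleo/Neo and in mp53 (Mycn and Mlx, all higher), where 37.4% and 22.9% of all genes were called. In Ras 6 of 9 were called (42.7% of all genes) and in mp53/Ras 8 of 9 (57.8%), with Mnt as the exception. These counts against YAMC include Mycn on its brightest set, where vector sequence and Mycn mRNA cannot be told apart. Another of its sets was lower in mp53/Ras than in YAMC (-0.66). Without the 4 arrays 7 were called in Ras and 8 in mp53/Ras. The exception in mp53/Ras was then Mxd3 (0.23, adjusted p = 0.130, limma), while Mnt was called (0.31, adjusted p = 0.0154). Between oncogene populations, 5 of 9 were called in mp53/Ras against mp53 (47.1% of all genes), 4 of 9 in mp53/Ras against Ras (21.6%) and 2 of 9 in Ras against mp53 (32.9%). Without the 4 arrays these 3 counts were 5, 3 and 3, beside 47.7%, 25.0% and 39.7% of all genes, and the count for mp53/Ras against Ras then includes Mycn.

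Groups did not overlap for 4 members in mp53/Ras against bleo/Neo (Myc, Mxd1, Mxd4 and Mycn on its brightest set), as for 17.3% of all genes. In mp53/Ras against Ras they did not overlap for 3 (Mxd1, Mxd3 and Mycn), as for 4.31% of all genes. Both counts include Mycn near the top of the scale. The median difference of the members in mp53/Ras against bleo/Neo was 0.21, beside 0.01 for all genes.

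**Figure D5:**
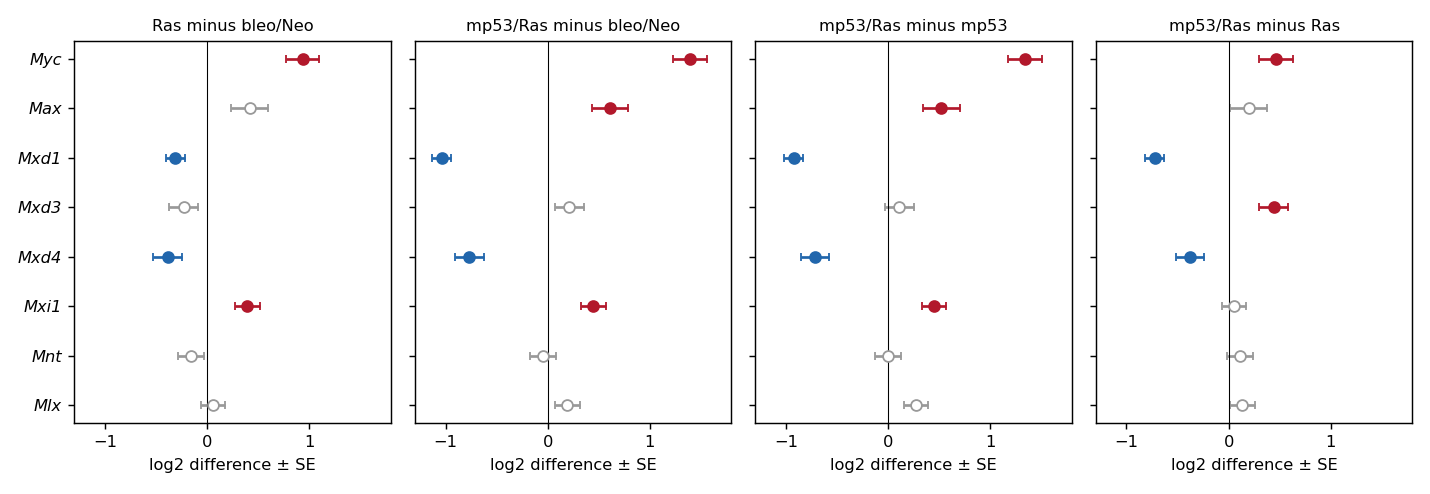
Log2 differences of the 8 members other than Mycn in 4 comparisons, 1 panel each, with bars for the standard error of the limma fit, n = 10 arrays per group. Red marks members called higher, blue lower and open grey not called at an adjusted p under 0.05. Myc rose and Mxd1 and Mxd4 fell in mp53/Ras against bleo/Neo (1.40, -1.04 and -0.77).

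Genes around the network were taken from lists. Of the other partners of Max and Mlx, Mycl, the third Myc paralogue, had median log2 levels of 7.25 in YAMC, 7.08 in mp53 and 6.85 in bleo/Neo. In Ras (6.46) and mp53/Ras (6.36) its median was near the table's. It fell by 0.35 ± 0.09 in Ras (adjusted p = 0.00102) and 0.47 ± 0.09 in mp53/Ras (adjusted p = 8.3e-06), and rose by 0.23 in mp53 (adjusted p = 0.0325), all relative to bleo/Neo. Mga, a large repressor that pairs with Max, fell by 0.47 ± 0.16 in mp53/Ras (adjusted p = 0.0120). Mlxip (MondoA), the partner of Mlx, rose by 0.27 ± 0.09 (adjusted p = 0.0121). Mlxipl (ChREBP) lay below the table's median on all arrays and was not tested.

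Txnip, an inhibitor of glucose uptake that Mlx dimers induce, rose by 0.71 ± 0.21 in mp53 (adjusted p = 0.00589) and 0.49 ± 0.21 in mp53/Ras (adjusted p = 0.0432) relative to bleo/Neo, but differed by 0.03 between mp53/Ras and YAMC (adjusted p = 0.908). Arrdc4, its relative, differed by -0.08 in mp53/Ras (adjusted p = 0.484).

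Among 14 tested cofactors of Myc and of the Mxd proteins, 6 rose in mp53/Ras against bleo/Neo and 8 were not called, beside 26.7% of all genes higher and 27.9% lower. Their median difference was 0.16. Smarcb1, a chromatin remodelling subunit that binds Myc, rose by 0.64 ± 0.07 (adjusted p = 2.85e-10). Actl6a, another remodelling subunit, rose by 0.46 ± 0.08, and the histone acetyltransferase gene Kat2a by 0.40 ± 0.08. Hdac1, a deacetylase used by the Mxd repressors, rose by 0.31 ± 0.07. In Ras 3 rose (19.7% of all genes higher and 21.4% lower), and in mp53 3 rose and 2 fell (16.5% and 18.9%), near the background for each of these counts.

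Of 10 enzymes and regulators of Myc protein stability, 3 rose and 3 fell in mp53/Ras against bleo/Neo, shares near the background of 26.7% and 27.9%. Fbxw7, the ubiquitin ligase subunit that targets Myc for degradation, fell by 0.89 ± 0.17 (adjusted p = 2.31e-05), against -0.11 in Ras (adjusted p = 0.641) and -0.05 in mp53 (adjusted p = 0.840). Trim32, another ubiquitin ligase, fell by 0.54 ± 0.13 (adjusted p = 0.000383). Aurka, a mitotic kinase known to stabilise N-Myc, rose by 0.63 ± 0.11 (adjusted p = 2.94e-06), and Skp2, a ligase subunit, by 0.36 ± 0.09 (adjusted p = 0.000667).

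Among 33 tested genes known to be induced by Myc, 17 rose and 3 fell in mp53/Ras against bleo/Neo, beside 26.7% of all genes higher and 27.9% lower. Their median difference was 0.26, beside 0.01 for all genes. The transferrin receptor gene Tfrc rose by 1.39 ± 0.18 (adjusted p = 3.77e-09) and the cap-binding factor gene Eif4e by 1.01 ± 0.14 (adjusted p = 1.44e-08). The ribosome assembly factor gene Wdr12 rose by 0.72 ± 0.13 and the lactate dehydrogenase gene Ldha by 0.69 ± 0.09. The 3 that fell were Cad, which starts pyrimidine synthesis (-1.09 ± 0.16, adjusted p = 7.74e-08), the serine hydroxymethyltransferase gene Shmt1 (-0.51 ± 0.09) and the phosphatase gene Cdc25a (-0.37 ± 0.06).

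In Ras against bleo/Neo 8 of the 33 rose and 1 fell, where 19.7% of all genes rose and 21.4% fell. In mp53 3 rose and 5 fell, where 16.5% and 18.9% of all genes did. These counts moved without the 4 arrays, to 13 and 2 in Ras (22.3% and 24.8% of all genes) and to 3 and 9 in mp53 (18.5% and 21.6%). In mp53/Ras against mp53, 21 rose and 3 fell, beside 23.3% and 23.8% of all genes. In Ras against mp53, 11 rose, beside 16.7% of all genes higher and 16.2% lower. Without the 4 arrays 23 rose and 1 fell there, beside 20.2% and 19.5%. Between mp53/Ras and Ras, 3 rose and 3 fell, near the 9.12% and 12.5% of all genes.

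Of 10 tested genes known to be repressed by Myc, 4 fell and 1 rose in mp53/Ras against bleo/Neo, where 27.9% of all genes fell and 26.7% rose. The stress gene Gadd45a fell by 1.04 ± 0.28 (adjusted p = 0.00138), the chaperone gene Clu by 0.54 ± 0.12, Gadd45b by 0.51 ± 0.13 and the cell cycle inhibitor gene Cdkn1a by 0.39 ± 0.03 (adjusted p = 9.39e-15). The inhibitor gene Cdkn2b rose by 0.50 ± 0.08 (adjusted p = 1.68e-06). In mp53/Ras against mp53, 8 of the 10 fell, as did 23.8% of all genes. The mp53 level was itself raised, since 4 rose and 0 fell in mp53 against bleo/Neo (16.5% and 18.9% of all genes). In Ras against bleo/Neo 4 fell and 1 rose (21.4% and 19.7%), the same counts as in mp53/Ras. Between mp53/Ras and Ras, 2 fell and 0 rose (12.5% and 9.12%). Cdkn1a and Gadd45a are known as targets of p53 as well.

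The genes whose levels were most like those of Myc over the 50 arrays, among 12230 ranked, were Dtwd1 (Pearson r = 0.91), Eef1e1 (0.91), Rpf2 (0.90), Tmem97 (0.90) and Sc5d (0.89). For Mxd1 they were Pik3r3 (0.91), Mab21l3 (0.91), Grhl3 (0.90), Sbk1 (0.90) and Dab2ip (0.90). The arrays share group and normalization, so these are descriptions. On the deviations from group means the values ranged from 0.66 for Sc5d to 0.79 for Dtwd1 with Myc. With Mxd1 they were lower, from 0.52 for Mab21l3 to 0.64 for Dab2ip. For Mycn the arrays fell into separate clusters, and no pooled correlation is given.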

How the data were processed

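The authors deposited a table of linear intensity values, 1 per probe set, for 50 Affymetrix mouse arrays hybridised with 5 µg of labelled polysomal RNA each, per the labels' protocols. The submitters' processing notes name RMA, and how its log scale was undone is not given in the sources used here. Array medians ran from 86.4 to 86.7, and 64 of 45101 probe sets were blank. No scan date or detection call was used. Precision is limited by the number of arrays. Log2 was taken with no offset. Each symbol was read by its brightest probe set (mean over all arrays). Genes above the table median (6.44) on at least 10 arrays entered limma 3.58.1 (R 4.3.3) with 1 coefficient per group and an intensity trend, tested on simulated data. All probe sets with 1 symbol were fitted likewise.

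Members, lists and tests were chosen with earlier results of these data known. Up to 4 called genes per list with the largest difference and up to 2 against the list are named; Cdc25a was added after its value was seen. The alternatives were other probe sets, filters, log offsets, centring, array weights, a replicate block, the compared groups alone and leaving out arrays. Sequences are RefSeq's (GRCm38.p6).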

Additional observations from a re-analysis of the deposited data

Results flagged for a closer look

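Among the 45 sets of 10 arrays (9 members, 5 groups), 9 had an array far from the rest by Dixon's criterion, and chance gives about 1 in 20. For Myc these were the array labelled mp53 8 (7.67) and the array labelled Ras 10 (8.18), both the lowest of their group. For Mycn on its brightest probe set they were YAMC 2 (13.82, the highest), bleo/Neo 10 (13.19), mp53 8 (7.16) and Ras 10 (13.67), the last 3 each the lowest. The others were Max on mp53/Ras 10 (8.09, the lowest), Mxi1 on mp53 5 (8.61, the highest) and Mlx on mp53 8 (7.80, the lowest). Of the 9, 6 were on arrays nearer another group's mean.

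The fall of Mxd1 from mp53 to mp53/Ras was larger than that from bleo/Neo to Ras, with a non-additive term of -0.61 ± 0.13 (adjusted p = 0.000344, limma). Over the alternatives it ranged from -0.73 to -0.32, with an adjusted p between 1.08e-06 and 0.00101. It was read on 1434830_at, and the other sets gave -0.03 on 1422002_at (adjusted p = 0.803) and 0.09 on 1455104_at (adjusted p = 0.440).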

How the results depend on the processing

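Of 1010 member values under alternatives, 937 kept direction and side of the threshold, 14 lost the call, 45 gained one and 14 reversed. Of those that reversed, all but the Mxd1 value were of Mycn. With the median of bright probe sets, Mycn was -0.96 in Ras and -1.03 in mp53/Ras against bleo/Neo, -0.18 and -0.25 against YAMC, and -0.41 in mp53/Ras against mp53, and Mxd1 in Ras against bleo/Neo was 0.0049. By probe set 1417155_at, an alternative chosen after seeing the data, Mycn was -0.97 and -1.12 against bleo/Neo, -0.51, -0.00021 (mp53) and -0.66 against YAMC, and -0.66 in mp53/Ras against mp53. Without the 4 arrays Mycn in mp53 against bleo/Neo was 0.39, and with YAMC as baseline, also chosen after seeing the data, its non-additive term was -4.66.

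Of the counts of members called, 107 stayed within 1.5 times and 15 moved. In mp53 against bleo/Neo 1 member was called with the median of probe sets, with array weights and without the 4 arrays. With the median of probe sets 1 was called in mp53 against YAMC, 8 in mp53/Ras against mp53 and 2 in mp53/Ras against Ras. Array weights gave 4 in bleo/Neo and 4 in mp53 against YAMC, and 6 in Ras against mp53. By the other Mycn set 1 was called in bleo/Neo and 1 in mp53 against YAMC. Without mp53 10 and Ras 10, 2 were called in mp53/Ras against Ras. With only the compared groups 5 were called in Ras against mp53, and with YAMC as baseline 2 were non-additive. The cause was not tested.

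The labels do not say that replicate numbers pair the arrays, and the main fit had no block for them. Even so, arrays of the same number in different groups tended to deviate alike. Their deviations correlated over 0.1 in 67 of 100 pairs (median 0.19, from -0.52 to 0.75, against -0.024 for other pairs). Of the 50 arrays, 31 correlated best with an array of their own number. What the numbers share was not tested, and the main p-values leave this likeness out. With the replicate block 92 member values stayed on their side of the threshold and 7 gained a call. With the replicate block 5 members were called in Ras against mp53 in place of 2. Dim probe sets and the ceiling of the scale limit what can be measured.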
